A study of Sus scrofa with 14 samples.

Results

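The topologically associating domains (TADs) of the greater omentum (GOM) and of the upper layer of backfat (ULB) were compared in Bama pigs. The GOM is a visceral adipose tissue of the abdominal cavity and the ULB is a subcutaneous one. All TADs on the 18 autosomes of the 2 Bama pig lists were taken, 3682 from GOM and 3942 from ULB, which is 7624 of the 15380 TADs in the 4 lists of the series. A boundary was the midpoint between neighbouring TADs at most 400 kb apart, and boundaries of both depots were matched when their midpoints lay within 40 kb. The tissues came from 2-year-old female pigs, 2 Bama pigs and 2 wild boars, with no transgene or treatment. The study describes the Bama pigs as a Bama Xiang line without long inbreeding, and the wild boars as wild-caught young animals kept in captivity. Each list came from the merged reads of the 2 in situ Hi-C libraries of a breed and depot, so there was 1 list per group. A difference between lists therefore has no replicate check and was not tested. The Bama ULB list also contains a library generated for another series, so depot and origin of the library cannot be told apart in it. Gene expression was read from RNA-seq of 2 Bama GOM libraries (BM-GOM-1 and BM-GOM-2) and 1 Bama ULB library (BM-ULB-2), with 2 GOM and 2 ULB libraries of wild boar beside them.

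TADs are stretches of chromatin whose loci touch each other more often than they touch loci outside. Cohesin extrudes loops of DNA until it meets the zinc-finger protein CTCF, whose motif has a direction, and paired motifs that point towards each other often lie at the ends of such loops. A boundary that appears or disappears changes which enhancers and promoters share a domain. Visceral and subcutaneous fat keep different sets of developmental transcription factors active through adult life, among them GATA factors and TCF21 in visceral fat and SHOX2, EN1 and Iroquois genes in subcutaneous fat.

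The 3 Bama RNA-seq libraries held 18627076 (BM-GOM-1), 14302215 (BM-GOM-2) and 10833153 (BM-ULB-2) estimated counts. Summed over the genes listed, TPM (transcripts scaled to a fixed total per library) came to 956616, 932686 and 774260, so TPM values of the ULB library are low as a whole and tests were run on normalized counts. A gene was called when edgeR's quasi-likelihood test gave a Benjamini-Hochberg adjusted p below 0.05 and the absolute log2 fold change exceeded 1. Of all 17580 genes tested, 96 (0.546%) were called. BM-ULB-2 stood apart: its Spearman correlation with the other 6 libraries over 17580 genes was 0.873 to 0.91, against 0.914 to 0.971 among the others. Adipocyte markers were abundant in every Bama library, with a summed TPM of 15165, 20591 and 15789, and none of the 12 genes passed the test. The mesothelium list summed to 153.8 and 114.2 in GOM and 1.3 in ULB. Liver genes summed to 508.1 and 1322.5 in GOM and 254.5 in ULB, lymphocyte genes to 232.3 and 222.1 against 46.2 (JCHAIN alone 189.8 and 183.8 against 19.3, while 4 of the 8 genes were lower in both GOM libraries), macrophage genes to 533.4 and 252.5 against 201.0, and endothelial genes to 604.8 and 465.2 against 464.2. Skeletal muscle genes (2.1, 3.7 and 4.6) and keratinocyte genes (2.9, 0.9 and 1.6) were near 0. In these bulk samples fewer cells of a type and less RNA per cell cannot be told apart.

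Matches of the CTCF core motif, searched on both strands of the Sscrofa11.1 reference, lay close to some boundaries that were found in 1 Bama depot and again in the same depot, but not the other, of wild boar. Of 133 such GOM-only boundaries over 100 kb from any ULB boundary, 34 had a match within 40 kb, and of 185 such ULB-only boundaries, 52 had one. At least 1 match lay within 40 kb of 28.4% of all GOM-only, 29.8% of all ULB-only and 39.1% of shared boundaries. The share at random places was not counted, and over all autosomes there were 3.51 matches per Mb. Of the 34 and of the 52, the 3 with the match nearest to the midpoint are shown with 15 bases on each side. The motif is in capitals, 5′ to 3′ on its own strand. The GOM-only examples lie at chr7:21190154-21190196 (minus strand, between genes), chr2:134810841-134810883 (plus strand, within SLC22A5, a carnitine transporter gene) and chr6:133932808-133932850 (minus strand, between genes), 0.2, 0.9 and 2.8 kb from the boundary. The ULB-only examples lie at chr6:74559197-74559239 (minus strand, within FHAD1), chr1:271319002-271319044 (minus strand, between genes) and chr1:102308837-102308879 (minus strand, within DCC, a netrin receptor gene), 0.8, 1.0 and 1.1 kb away.
GOM-only, chromosome 7: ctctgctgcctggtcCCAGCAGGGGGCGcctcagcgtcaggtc
GOM-only, chromosome 2: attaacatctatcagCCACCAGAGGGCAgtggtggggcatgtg
GOM-only, chromosome 6: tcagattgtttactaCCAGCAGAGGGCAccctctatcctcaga
ULB-only, chromosome 6: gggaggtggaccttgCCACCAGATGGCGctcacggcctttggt
ULB-only, chromosome 1, near PRRC2B: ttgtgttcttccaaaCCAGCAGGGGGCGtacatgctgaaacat
ULB-only, chromosome 1, in DCC: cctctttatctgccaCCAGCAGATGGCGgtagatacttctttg
The nearest TAD end of the other Bama list was 40 kb away for the GOM-only example on chromosome 6 and 100 to 640 kb away for the other 5. Wild boar ULB had a TAD end at the same place as a TAD end forming the GOM-only example on chromosome 7. It had one 260 kb from that on chromosome 2 and 60 kb from that on chromosome 6. For the ULB-only examples the nearest wild boar GOM TAD end was 160 to 520 kb away. A match is a description of the letters and not evidence that CTCF was bound there.

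GOM had fewer and longer TADs than ULB. The median length was 460 kb in GOM and 440 kb in ULB, and the mean was 537.3 kb (SD over TADs 321.0, n = 3682) against 508.0 kb (SD 288.5, n = 3942). TADs of at least 1 Mb numbered 299 (8.12%) in GOM and 261 (6.62%) in ULB, and the longest reached 3.14 Mb and 2.28 Mb. The lists covered nearly the same length, 1978.51 Mb and 2002.62 Mb. GOM had fewer TADs on 18 of 18 autosomes. In wild boar the order was the other way round, with 3906 TADs in GOM and 3850 in ULB.

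**Figure D1:**
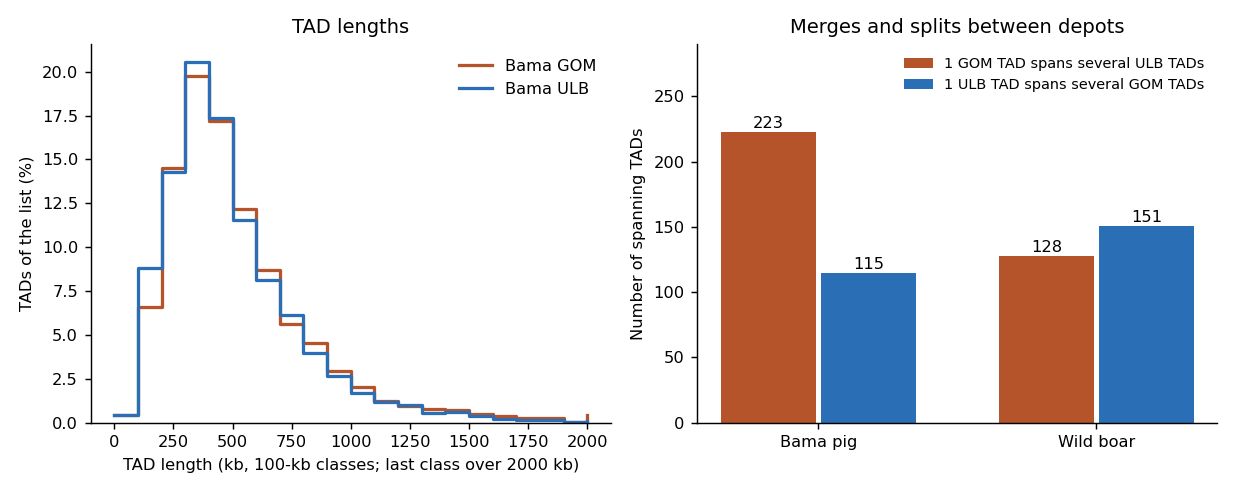
The left panel plots the share of TADs (%) in each 100-kb length class for Bama GOM (n = 3682) and Bama ULB (n = 3942), and the right panel plots the number of TADs that span several TADs of the other depot in each breed. ULB holds the larger share of TADs of 100 to 200 kb, and Bama GOM has 223 merges and 115 splits against 128 and 151 in wild boar.

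Most boundaries were found in both depots. Of 3563 GOM and 3862 ULB boundaries, 2884 matched, which is 80.94% of the GOM and 74.68% of the ULB boundaries. This left 679 GOM-only boundaries (19.06%) and 978 ULB-only boundaries (25.32%). The ULB-only share was the larger on 18 of 18 autosomes. This follows from the larger number of ULB boundaries, because equal numbers matched in both lists, and is not a separate result. The ULB-only share ranged from 18.9% on chromosome 18 to 33.6% on chromosome 16, and the GOM-only share from 12.7% on chromosome 5 to 27.6% on chromosome 16. Of the GOM-only boundaries, 512 (75.4%) fell inside a ULB TAD, and 347 (51.1%) lay over 100 kb from the nearest ULB boundary. Of the ULB-only boundaries, 656 (67.1%) fell inside a GOM TAD, 132 (13.5%) fell in a GOM gap over 400 kb or at a chromosome end, and 636 (65.0%) lay over 100 kb from the nearest GOM boundary. The median distance to the nearest boundary of the other depot was 110 kb for GOM-only and 180 kb for ULB-only boundaries. Close to the limit, 322 matched GOM boundaries lay 30 to 40 kb from their ULB partner, and 61 GOM-only and 61 ULB-only boundaries lay over 40 and at most 50 kb from one. When the gaps between TADs were matched in place of their midpoints, 309 GOM-only and 566 ULB-only boundaries were left. A depot-only boundary is thus not always a depot-only TAD end. For 409 GOM-only boundaries (60.2%) and 510 ULB-only boundaries (52.1%), the other depot had a TAD end within 40 kb of one of the TAD ends that form the boundary. In the remaining 270 GOM-only (39.8%) and 468 ULB-only (47.9%) boundaries no TAD end of the other depot lay that close.

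The boundaries farthest from any boundary of the other depot, among those found again in the same wild boar depot alone, had few genes near them. In 5 of these 10 the other Bama list had no TAD end within 100 kb either. These were the GOM-only boundary at 61390000 on chromosome 10 (nearest ULB TAD end 880 kb away) and 4 ULB-only boundaries. The ULB-only boundaries at 41050000 and 40710000 on chromosome 15 were 1400 and 1060 kb from the nearest GOM TAD end. The ULB-only boundary at 63630000 on chromosome 8, 700 kb away, lies at the ephrin receptor gene EPHA5, and that at 89990000 on chromosome 15, 1300 kb away, lies at the zinc-finger gene ZNF804A. The other 5 had a TAD end of the other list nearby, beside a gap of that list. The ULB list had a TAD end at the same place as the GOM-only boundary at 30310000 on chromosome 9, at the neuronal contactin gene CNTN5, and as that at 124290000 on chromosome 6. It had one 20 kb from the GOM-only boundary at 99390000 on chromosome 5, near METTL25 and CCDC59, and one 60 kb from that at 57790000 on chromosome 12. The GOM list had a TAD end 20 kb from the ULB-only boundary at 31130000 on chromosome 2. For these last 5 the wild boar list of the opposite depot also had a TAD end, 0 to 40 kb away. For the first 5 the nearest one in that wild boar list was 100 to 1400 kb away. None of these 10 boundaries had a CTCF core match within 40 kb.

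Merges of ULB TADs into 1 GOM TAD outnumbered splits. TADs with both ends within 40 kb were shared by both depots in 2430 cases, 66.0% of the GOM and 61.6% of the ULB TADs. In 223 cases 1 GOM TAD spanned 2 or more ULB TADs, and in 115 cases 1 ULB TAD spanned 2 or more GOM TADs. Of the merges, 203 joined 2 ULB TADs and 20 joined 3 or 4, and the merged GOM TADs had a median length of 860 kb and covered 213.27 Mb. The spanning ULB TADs of the splits had a median length of 760 kb and covered 97.89 Mb. The other 1029 GOM and 1397 ULB TADs, which include the parts of splits and merges, were neither shared nor spanning. Matching within 20 kb gave 180 merges and 97 splits, and matching within 80 kb gave 264 and 137.

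The 3 merges with the most TADs each joined 4 ULB TADs. At chr15:88680001-91400000 a GOM TAD of 2720 kb spanned ULB TADs of 720, 560, 520 and 880 kb, and ZNF804A was the only placed gene in it. At chr14:49840001-51660000 a GOM TAD of 1820 kb held 48 placed genes, among them TBX1, DGCR8, DGCR2 and the cytokine gene MIF. Of its 45 tested genes, none passed the test, and all 3 of its inner ULB boundaries were present in both wild boar lists. At chr17:61460001-63080000 a GOM TAD of 1620 kb spanned ULB TADs of 300, 280, 420 and 580 kb and held 48 placed genes, 40 of them tested, with GATA5 the gene that passed the test. Wild boar GOM also had none of its 3 inner boundaries, and wild boar ULB had 1. The splits with the most parts were ULB TADs of 1440 kb at chr2:91900001-93340000, with the matrix genes HAPLN1 and EDIL3, and of 1040 kb at chr2:77960001-79000000, with 13 placed genes including the lymphatic receptor gene FLT4 and SQSTM1. Each held 3 GOM TADs. The longest split in 2 parts, 2020 kb at chr8:97300001-99320000, held no placed gene.

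Depot-only boundaries were found again in the same depot of wild boar more often than in the other. Of the 679 GOM-only boundaries, 381 (56.1%; 95% Wilson interval 52.4 to 59.8) lay within 40 kb of a wild boar GOM boundary and 196 (28.9%; 25.6 to 32.4) of a wild boar ULB boundary. Of the 978 ULB-only boundaries, 604 (61.8%; 58.7 to 64.8) lay near a wild boar ULB boundary and 408 (41.7%; 38.7 to 44.8) near a wild boar GOM boundary. These intervals cover counting error over boundaries only, and boundaries of 1 list are not replicates. The share in the same depot was the larger on 16 of 18 autosomes for GOM-only and 17 of 18 for ULB-only boundaries. Split 4 ways, 241 GOM-only boundaries (35.5%) were in wild boar GOM alone, 56 (8.2%) in wild boar ULB alone, 140 (20.6%) in both and 242 (35.6%) in neither. The ULB-only boundaries divided into 290 (29.7%) in wild boar ULB alone, 94 (9.6%) in wild boar GOM alone, 314 (32.1%) in both and 280 (28.6%) in neither. The 314 in both wild boar lists were absent from the Bama GOM list alone among the 4 lists. Among the depot-only boundaries with no TAD end of the other depot within 40 kb, the wild boar list of the same depot held 54.1% of the 270 GOM-only and 57.9% of the 468 ULB-only boundaries, and the list of the opposite depot 23.3% and 36.3%. Of the 2884 shared boundaries, 86.4% were in both wild boar lists.

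**Figure D2:**
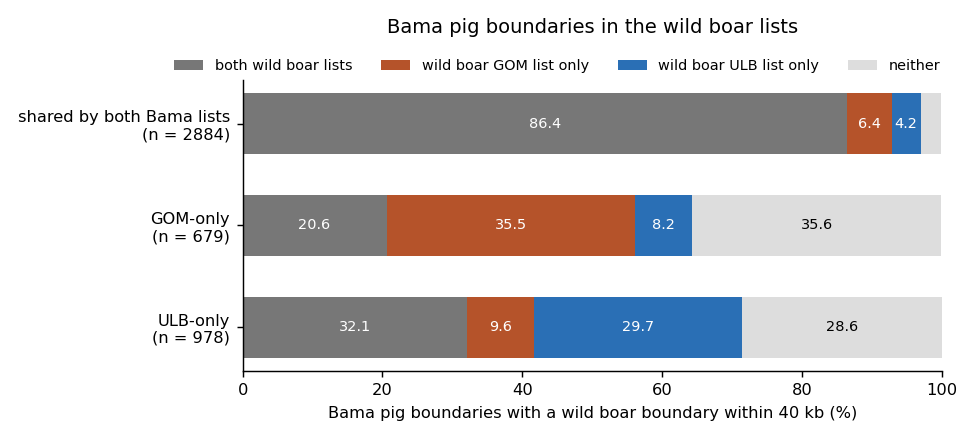
Bars give the percent of shared (n = 2884), GOM-only (n = 679) and ULB-only (n = 978) Bama pig boundaries that have a boundary within 40 kb in both, 1 or neither of the wild boar lists. Shared boundaries are in both wild boar lists in 86.4% of cases, GOM-only boundaries are in wild boar GOM alone in 35.5%, and ULB-only boundaries are in wild boar ULB alone in 29.7%.

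Merges and splits followed the same order. Of 223 GOM merges, 67 (30.0%) had all inner boundaries in wild boar ULB and none in wild boar GOM, 18 (8.1%) had the opposite arrangement, and 64 (28.7%) had all inner boundaries in both. Of 115 GOM splits, 45 (39.1%) had the inner boundaries in wild boar GOM alone, 7 (6.1%) the opposite, and 21 (18.3%) had them in both.

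Depot-only boundaries carried smaller steps in compartment score than shared ones. The deposited files name the score an A-B index. It was read as the first principal component (PC1) of each library's contact matrix because its mean is 0 on each chromosome, which leaves its definition uncertain. Positive values stand for the active A compartment and negative values for the inactive B compartment, and the step is the absolute difference of its mean over 200 kb on the left and right. Relative to the median step over all bin edges of the autosomes, the step at shared boundaries was 2.03 (BM-GOM-1), 2.09 (BM-GOM-2) and 2.1 (BM-ULB-2). At GOM-only boundaries it was 1.4, 1.4 and 1.29, and at ULB-only boundaries 1.13, 1.18 and 1.22. The shared boundaries lay above both depot-only classes in every library. With a window of 100 kb the values of GOM-only boundaries were 1.345, 1.27 and 1.195 and those of ULB-only boundaries 1.175, 1.188 and 1.209, so the order of the depot-only classes depended on the window and the library. The share of boundaries in the A compartment was 59.7, 56.9 and 58.1% for shared, 43.7, 44.0 and 43.3% for GOM-only, and 48.0, 46.3 and 47.8% for ULB-only boundaries. The PC1 comes from the same Hi-C libraries as the TAD lists.

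CTCF core matches were denser at shared than at depot-only boundaries. Within 40 kb of the midpoint there were 6.89 matches per Mb at shared, 4.77 at GOM-only and 4.95 at ULB-only boundaries, against 3.51 over all autosomes (7959 matches). The gap between the TADs was over 100 kb at 12.7% of shared, 27.1% of GOM-only and 16.7% of ULB-only boundaries. In those gaps the 40 kb did not reach the TAD ends, and the part of gap width in the densities was not tested. At least 1 match lay within 40 kb of 39.1% of shared, 28.4% of GOM-only and 29.8% of ULB-only boundaries. Of the matches, 64.0% pointed away from the midpoint at shared, 54.1% at GOM-only and 62.5% at ULB-only boundaries. Matches in the gap between TADs were counted too. Start sites of protein-coding genes numbered 12.96 per Mb at shared, 10.6 at GOM-only and 11.16 at ULB-only boundaries, against 8.26 over all autosomes. The GC content within 40 kb was 43.0, 41.68 and 42.25%, and 41.91% over all autosomes.

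**Figure D3:**
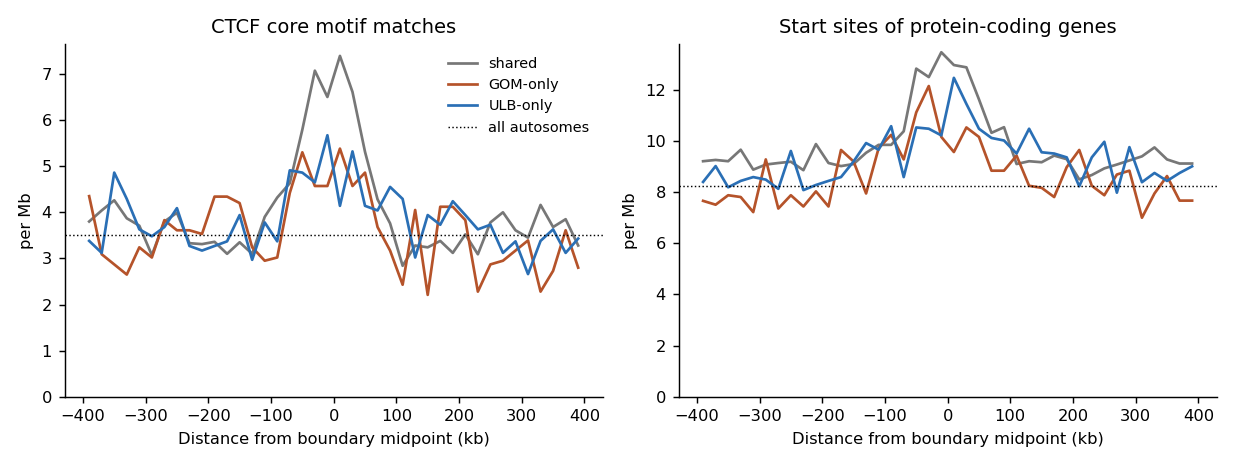
Lines give CTCF core motif matches per Mb (left) and start sites of protein-coding genes per Mb (right) in 20-kb steps by distance from the boundary midpoint (kb) for shared, GOM-only and ULB-only boundaries, with the density over all autosomes dotted. Matches within 40 kb reach 6.89 per Mb at shared boundaries, 4.77 at GOM-only and 4.95 at ULB-only boundaries.

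The share of genes called between depots was close to the background. Of the 13049 genes placed on autosomes, 2724 had a start site within 40 kb of a depot-only boundary, lay across one, or started in a merged or split TAD. Of these, 2487 passed the filter on low values. Among the members 15 genes (0.603%) were called, 10 higher and 5 lower in GOM. Over all genes tested 0.546% were called, 37 higher (0.21%) and 59 lower (0.336%) in GOM. Members could only be genes placed on autosomes, and of the 12020 such genes tested 68 (0.566%) were called, 31 higher and 37 lower. By place, 4 of 470 genes at GOM-only boundaries (0.851%), 5 of 698 at ULB-only boundaries (0.716%), 4 of 1128 in merges (0.355%) and 5 of 600 in splits (0.833%) were called, and 11 of 2438 at shared boundaries (0.451%). The median log2 fold change (GOM minus ULB) was -0.01 at GOM-only boundaries, 0.08 at ULB-only boundaries, 0.14 in merges and 0.15 in splits, against 0.10 over all genes placed on autosomes. Merges and splits held a median of 3 placed genes, with 31 merges and 21 splits holding none.

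The Iroquois cluster on chromosome 6 had a boundary at IRX3 in GOM and at IRX5 in ULB. Both genes encode homeobox transcription factors. The Bama GOM list divided the cluster at 31050000, 5.1 kb from the start of IRX3, into TADs of 860 kb (chr6:30180001-31040000) and 660 kb (chr6:31060001-31720000). The ULB list divided it at 30510000, 5.0 kb from the start of IRX5, into TADs of 320 kb (chr6:30180001-30500000) and 1200 kb (chr6:30520001-31720000). Both outer ends were the same. The wild boar lists repeated this, with a GOM boundary between 31020000 and 31040001 and a ULB boundary between 30500000 and 30520001. The GOM-only boundary lay 540 kb from the nearest ULB boundary, and the ULB-only boundary 340 kb from the nearest GOM boundary, with no TAD end of the other depot within 520 and 320 kb.

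Both genes were listed lower in GOM. IRX3 was at 1.2 and 1.26 TPM in GOM and 6.37 in ULB, with 26, 22 and 113 counts, a log2 fold change of -2.83 (SE 0.66) and an edgeR adjusted p of 0.119. IRX5 was at 0.16 and 0.22 TPM in GOM and 2.87 in ULB, with 4, 4 and 57 counts, a log2 fold change of -4.38 (SE 0.95) and an edgeR adjusted p of 0.0984. Neither passed the threshold. In wild boar IRX3 was at 1.66 and 4.26 TPM in GOM and 15.95 and 13.14 in ULB, and IRX5 at 0.13 and 0.47 against 3.99 and 2.76, without overlap. The PC1 at IRX3 was -10.4 and -12.4 in Bama GOM and 0.3 in ULB, and at IRX5 -12.5 and -19.6 against 5.1.

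The 250 bases before the RefSeq start of IRX3 are shown because this start lies 5.1 kb from the GOM-only boundary, in the gap between the GOM TADs. They span chr6:31044669-31044918 on the plus strand. The letters GGGCGG, a GC box, were searched on both strands and have 1 match, in capitals. The nearest CTCF core match was 306.5 kb from the IRX3 start. Of 18721 promoters of 300 bases (250 before and 50 from the start), 50.8% held GGGCGG and 0.5% a CTCF core match.
IRX3: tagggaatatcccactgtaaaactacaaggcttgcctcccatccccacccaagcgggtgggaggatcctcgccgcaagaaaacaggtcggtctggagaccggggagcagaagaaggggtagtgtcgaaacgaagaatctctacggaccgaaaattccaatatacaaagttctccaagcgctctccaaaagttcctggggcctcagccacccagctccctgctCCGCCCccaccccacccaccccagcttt

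Further patterning genes lay at depot-only boundaries. SHOX2, a homeobox gene of limb development and subcutaneous fat on chromosome 13, lay 22.3 kb from a GOM-only boundary that split the ULB TAD chr13:97420001-98300000 (880 kb) into 2 GOM TADs of 440 kb. Wild boar showed the same boundary in GOM and not in ULB. SHOX2 was at 0.84 and 1.79 TPM in GOM and 15.999 in ULB (24, 43 and 385 counts), with a log2 fold change of -4.06 (SE 0.76) and an edgeR adjusted p of 0.0606, which missed the threshold. TCF21, a basic helix-loop-helix factor of visceral mesenchyme on chromosome 1, lay 28.3 kb from a ULB-only boundary at 29950000 that was also in wild boar ULB alone and lay 80 kb from the nearest GOM boundary. In GOM no TAD lay between 29780000 and 29960001, where the ULB list had a TAD of 100 kb (chr1:29800001-29900000). A GOM TAD started at 29960001, 10 kb from the midpoint and 40 kb from a TAD end forming the boundary. The 2 depots thus differed here in the width of the gap and in the 100-kb TAD. TCF21 had 144 and 115 counts in GOM and 0 in ULB, so it was at least 28.3-fold higher in GOM against a floor of 3 counts, with an edgeR adjusted p of 0.0511. In wild boar it was at 8.2 and 3.07 TPM in GOM and 0.0 and 0.062 in ULB. A CTCF core match lies 5.4 kb from that boundary, between genes at chr1:29944553-29944595 on the plus strand, and points across it.
TCF21 boundary: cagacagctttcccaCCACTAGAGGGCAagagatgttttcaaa
SIM1, a gene of neuronal development, lay in a GOM merge of 940 kb and had 4 and 1 counts in GOM and 29 in ULB. Its edgeR adjusted p was 0.12. The inner boundary of that merge was in neither wild boar list, and both had a single TAD there (chr1:66760001-67700000). In wild boar SIM1 was at 0.061 and 0.013 TPM in GOM and 1.19 and 1.35 in ULB. Of the 19 depot patterning genes listed, 15 were tested and 2 called, GATA6 higher and HOXD8 lower in GOM, and neither of these was a member.

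ZIC1, a zinc-finger transcription factor of neural development and of brown fat in mice, was called in a split TAD. The ULB TAD chr13:87560001-88460000 (900 kb) was cut into GOM TADs of 320 and 520 kb, and ZIC1 started in the first. Wild boar GOM had a boundary 60 kb away from the Bama one, so it was not matched, and wild boar ULB had none. ZIC1 had 0 and 0 counts in GOM and 34 in ULB, at least 17.3-fold lower in GOM (edgeR adjusted p = 0.0469). In wild boar it was at 0.0 TPM in both GOM libraries and at 23.0 and 12.1 in ULB. This call was lost with DESeq2 (adjusted p = 0.332), with upper-quartile normalization (0.0501) and without either GOM library (0.0763 and 0.115, edgeR).

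**Figure D4:**
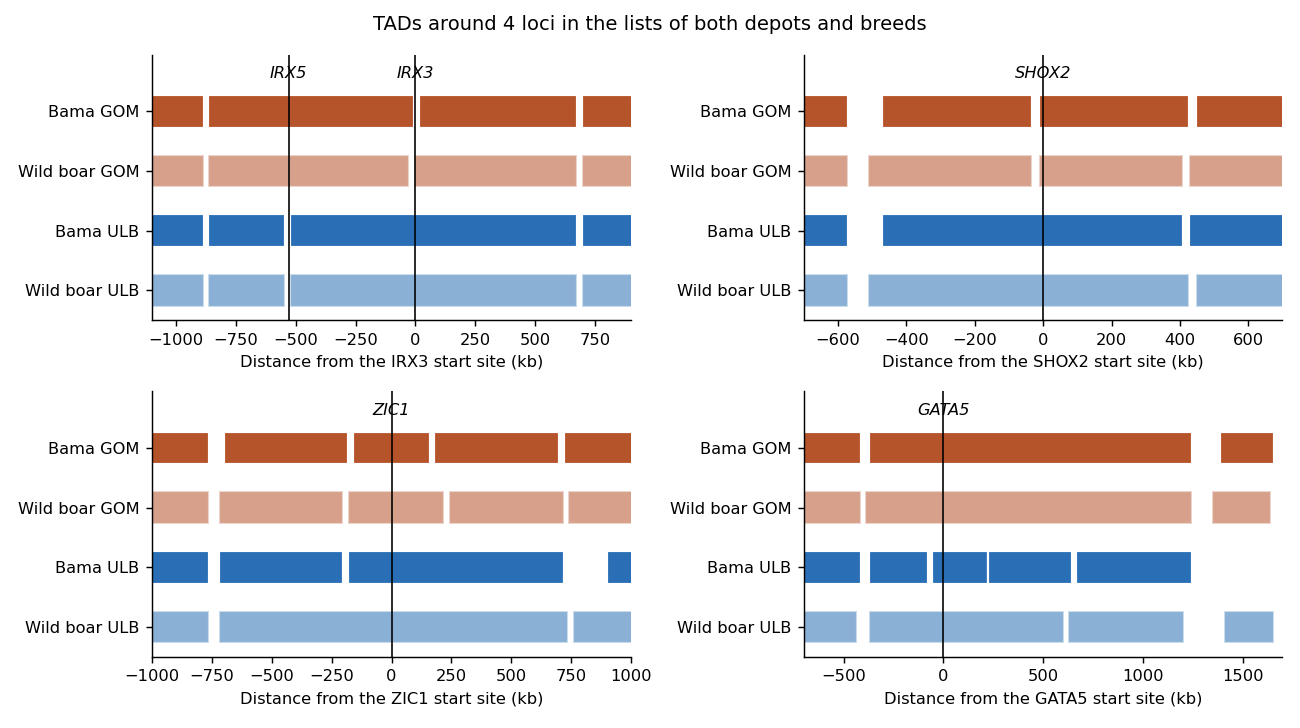
TADs (bars) of Bama GOM, wild boar GOM, Bama ULB and wild boar ULB are drawn by distance from the start site (kb) of IRX3, SHOX2, ZIC1 and GATA5, whose start sites and that of IRX5 are vertical lines. Both GOM lists have a boundary at IRX3 and both ULB lists at IRX5, SHOX2 lies beside a boundary in both GOM lists, and the GOM TAD of 1620 kb at GATA5 corresponds to 4 Bama ULB TADs.

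Signalling and matrix genes were called at depot-only boundaries. WNT5A, a secreted ligand of non-canonical Wnt signalling on chromosome 13, lies across a ULB-only boundary at 37350000, which was 380 kb from the nearest GOM boundary and also in wild boar ULB alone. The nearest GOM TAD end was 360 kb from it. WNT5A was at 26.8 and 25.98 TPM in GOM and 1.64 in ULB, a log2 fold change of 3.53 (SE 0.5; edgeR adjusted p = 0.0322). COL22A1, a collagen of tissue junctions on chromosome 4, lies across a ULB-only boundary at 4180000 that was also in wild boar ULB alone, 470 kb from the nearest GOM boundary. This boundary was the middle of a gap between TADs ending at 4040000 and starting at 4320001, and a GOM TAD started at 4340001 after a gap over 400 kb. Between 4040000 and 4320001 wild boar GOM had a TAD (chr4:4040001-4240000) and the start of another at 4260001. The midpoints of its boundaries there lay over 40 kb from 4180000. COL22A1 had 282 and 402 counts in GOM and 2 in ULB, a ratio of 112 per effective library size (95% interval of the counts 30.9 to 928; edgeR adjusted p = 0.0382). DGKB, a diacylglycerol kinase gene on chromosome 9, lies across a ULB-only boundary at 84080000, 1270 kb from the nearest GOM boundary and in neither wild boar list. All 4 lists had a TAD that ended at 84060000, and the other 3 had no TAD until 84500001, a gap over 400 kb that was not counted as a boundary. DGKB had 5 and 5 counts in GOM and 120 in ULB, a log2 fold change of -5.14 (SE 0.89; edgeR adjusted p = 0.0472).

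CDH13, which encodes T-cadherin, a receptor of adiponectin, lies across a GOM-only boundary on chromosome 6. The boundary at 5130000 cut the ULB TAD chr6:4700001-6180000 (1480 kb) into GOM TADs of 420 and 1000 kb, and wild boar had the same in GOM alone. CDH13 was at 42.7 and 24.5 TPM in GOM and 132.6 in ULB, a log2 fold change of -2.47 (SE 0.42; edgeR adjusted p = 0.0444). In wild boar it was at 36.5 and 46.3 against 107.1 and 127.4 TPM. The PC1 at its start was -44.2 and -52.7 in Bama GOM and -6.7 in ULB.

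For 3 called genes the depot-only boundary lay under 100 kb from a boundary of the other depot. PKHD1L1, a fibrocystin-like membrane protein gene on chromosome 4, starts 3.7 kb from a GOM-only boundary that was 50 kb from a ULB boundary. The TAD to its right started at 28240001 in both depots, so the gap differed in width. PKHD1L1 had 253 and 197 counts in GOM and 3 in ULB (ratio 49.2, interval 16.7 to 239; edgeR adjusted p = 0.0322). THBS4, a thrombospondin of the matrix, lay at boundaries of both kinds 70 kb apart and had 30 and 18 counts in GOM and 791 in ULB (log2 fold change -5.66, SE 0.6; edgeR adjusted p = 0.0218). ARAP2, a GTPase-activating protein gene, lies across boundaries of both kinds 90 kb apart and was at 19.5 and 21.3 TPM in GOM and 1.53 in ULB (log2 fold change 3.28, SE 0.48; edgeR adjusted p = 0.0344). At ARAP2 the TAD on the left ended at 27700000 in both depots, and at THBS4 a TAD started at 88780001 in both.

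In merged TADs 4 genes were called, of which 3 are described. GATA5, a zinc-finger factor of visceral organs and mesothelium in the 1620-kb merge on chromosome 17, was at 16.3 and 16.4 TPM in GOM and 0.038 in ULB. Its counts were 405, 338 and 1, a ratio of 244 (interval 43.6 to 9640; edgeR adjusted p = 0.0218). In wild boar GATA5 was at 22.5 and 9.24 TPM in GOM and 0.042 and 0.043 in ULB. BMP3, a member of the bone morphogenetic protein family, was at 16.5 and 15.2 against 0.4 TPM in a merge of 800 kb on chromosome 8 whose inner boundary was in neither wild boar list (log2 fold change 4.77, SE 0.76; edgeR adjusted p = 0.0391). RERG, a Ras-related growth inhibitor gene, was at 38.4 and 34.1 against 4.01 TPM (log2 fold change 2.71, SE 0.45; edgeR adjusted p = 0.0444). The inner boundary of the merge with RERG was in both wild boar lists.

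In split TADs BNC1, UPK1B and EPS8L2 were called higher in GOM. BNC1, which encodes the transcription factor basonuclin, was at 15.8 and 14.8 against 0.17 TPM (log2 fold change 5.99, SE 0.78; edgeR adjusted p = 0.0322), and its ULB TAD of 680 kb on chromosome 7 was cut into 460 and 240 kb in Bama and, in GOM alone, in wild boar. UPK1B, a uroplakin, was at 54.3 and 53.3 against 0.87 TPM (log2 fold change 5.49, SE 0.93; edgeR adjusted p = 0.0444) in a ULB TAD of 480 kb whose cut was in wild boar ULB alone, a call that was lost with upper-quartile normalization (adjusted p = 0.051). EPS8L2, an actin-linked adaptor gene, was at 8.34 and 8.52 against 0.14 TPM (log2 fold change 5.45, SE 0.83; edgeR adjusted p = 0.0375). The cut of its ULB TAD of 1060 kb was in both wild boar lists. BNC1 and UPK1B are mesothelial markers. Of the 8 mesothelium genes listed 3 were tested, BNC1, UPK1B and WT1, and all 3 were higher in GOM. WT1 was at 83.7 and 46.1 TPM in GOM and 0.25 in ULB. The part of mesothelial cells in these differences was not tested.

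**Figure D5:**
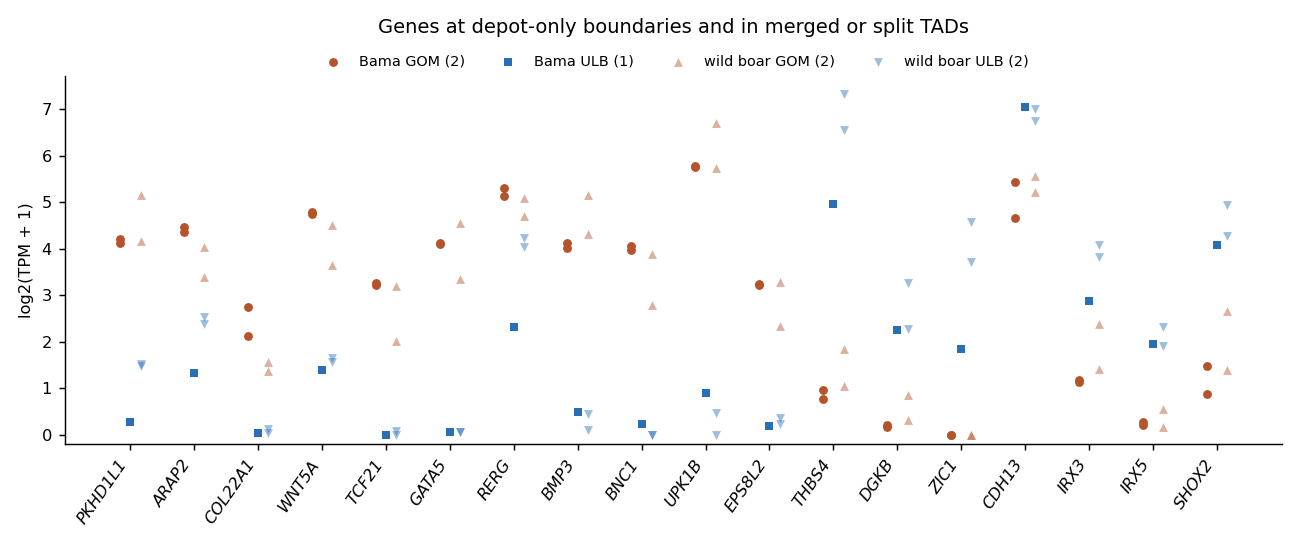
Points give log2(TPM + 1) of each library for 14 of the 15 called genes and for TCF21, IRX3, IRX5 and SHOX2, with circles for 2 Bama GOM libraries, squares for the Bama ULB library and triangles for 2 wild boar libraries of each depot. In all 14 called genes shown the GOM and ULB libraries do not overlap in either breed.

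All 15 called genes had both wild boar GOM libraries on the same side of both ULB libraries as in Bama pig, in library-scaled counts, and so did 69 of all 96 called genes. In 9 of the 96 they lay on the opposite side. The 96 include genes not placed on autosomes, which could not be members, and the 68 placed ones were not counted apart. These wild boar libraries shared the estimate of spread with the Bama test. At 14 of the 15 start sites the PC1 of both Bama GOM libraries lay on the same side of the ULB library as expression, and at 1 on the opposite side. Over the 68 called genes on autosomes these numbers were 52 (76.5%) and 10 (14.7%), and over all 12020 tested genes on autosomes 40.9% and 34.1%.

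Of the 15 calls, 4 remained when either GOM library was left out, those of PKHD1L1, THBS4, WNT5A and GATA5. Without BM-GOM-2 the calls of COL22A1, DGKB, ZIC1, CDH13, ARAP2, RERG, BMP3, BNC1, UPK1B and EPS8L2 were lost, and without BM-GOM-1 those of DGKB, ZIC1, RERG, BMP3, UPK1B and EPS8L2, with the direction unchanged. The call of the gene not described was lost without either library. The lone ULB library was assumed to vary like the other groups. The labels number the libraries without naming an animal, so p-values measure the spread between these libraries.

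The genes with the largest fold changes that did not pass the test had few counts. At GOM-only boundaries TMEM151A (156, 48 and 0 counts), UPP1 (13, 62 and 0), CRABP1 (18, 55 and 0) and MBL2 (2, 27 and 0) were at least 22.3-, 8.2-, 7.98- and 3.17-fold higher in GOM. ERICH6 (0, 1 and 45 counts), KCNIP4 (0, 1 and 21), DCDC2B (2, 3 and 75) and FGF14 (2, 2 and 44) were listed lower in GOM there. At KCNIP4 and FGF14 the ULB list had a TAD end 20 and 40 kb from a TAD end forming the boundary. At the other GOM-only boundaries named here it had one at the same place. The boundaries at MBL2, KCNIP4, DCDC2B and FGF14 were in both wild boar lists, and that at UPP1 in wild boar ULB alone. Those at TMEM151A, CRABP1 and ERICH6 were in neither. All of these GOM-only boundaries had, at the place of a TAD end forming them, a TAD end in both wild boar lists. At ULB-only boundaries PRDM6 (113, 62 and 0), CFAP74 (53, 74 and 0) and RBM11 (20, 14 and 0) were at least 19.1-, 13.9- and 3.72-fold higher, and NRN1 (0, 0 and 16) and HSPB9 (0, 0 and 7) at least 8.13- and 3.56-fold lower. At RBM11 a TAD started at 179200001 in both depots. The boundary at HSPB9 was in wild boar ULB alone and that at NRN1 in wild boar GOM alone. The boundary at CFAP74 was in both wild boar lists, and those at PRDM6 and RBM11 were in neither. PRDM6 and CFAP74 also lay in merges, as did RHAG (0, 1 and 40 counts). In splits IL18R1 (28, 80 and 0), CFTR (36, 28 and 0) and WFDC2 (23, 24 and 0) were at least 11.8-, 7.0- and 5.14-fold higher, AVP (0, 0 and 7) at least 3.56-fold lower, and CLEC1B had 0, 0 and 3 counts. The cut at IL18R1 was in wild boar ULB alone, and those at CFTR, WFDC2, AVP and CLEC1B were in both wild boar lists.

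Genes of the loop-forming machinery did not pass the test. All 12 listed, CTCF, its paralogue CTCFL, cohesin subunits and their loaders and releasers, were tested and 0 were called by edgeR's quasi-likelihood test. The largest difference in the list was that of CTCFL, at 0.029 and 0.103 TPM in GOM and 1.05 in ULB (log2 fold change -4.37, SE 1.13; edgeR adjusted p = 0.159). CTCF itself was at 49.3 and 30.7 TPM in GOM and 32.7 in ULB (log2 fold change -0.19, SE 0.39). Of these, 3 were members: WAPL, which releases cohesin, was at 86.8 and 64.7 against 56.6 TPM (log2 fold change -0.06, SE 0.37), the cohesin subunit STAG1 at 55.4 and 46.1 against 25.1 (0.54, SE 0.37), and the cohesin regulator PDS5B at 56.8 and 30.1 against 22.9 (0.43, SE 0.43). Among markers that were members, ADIPOQ, the gene of the hormone adiponectin, was at 3673 and 5332 against 3040 TPM (log2 fold change 0.11, SE 0.56), and the lipase gene PNPLA2 at 331.8 and 124.9 against 198.6 (-0.3, SE 0.54). ADIPOQ lay 33.9 kb from a ULB-only boundary that was in both wild boar lists, and a TAD started at 124620001 in both Bama depots. The liver gene ALB, across a GOM-only boundary, differed between the GOM libraries (293 and 873 TPM) and was at 77.7 in ULB, and the part of liver RNA in it was not tested. That boundary lay 60 kb from a ULB boundary, and a TAD started at 69740001 in both Bama depots. The macrophage genes CSF1R, MRC1 and CD68 had log2 fold changes of 0.0, 0.12 and 0.32.

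The depot difference of the members was also compared between breeds. Of 2487 members, 0 had an interaction of depot and breed past the threshold by edgeR's quasi-likelihood test, 113 (4.54%) had an unadjusted p below 0.05, and DESeq2 called 3. Over all 17580 genes 0 were called (0.0%) and 851 had an unadjusted p below 0.05. Without BM-GOM-1 these numbers were 308 members (12.4%) and 1961 genes.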

How the data were processed

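In situ Hi-C and RNA-seq files as deposited by the authors were used. Per the study's methods, the authors aligned Hi-C reads to Sscrofa 11.1 with BWA in Juicer, merged replicates per breed and depot, normalized matrices by the Knight-Ruiz and quantile algorithms and called TADs at 20 kb from the directionality index and insulation score. The authors deposited a compartment score per library under the name A-B index, which the methods define as an A score minus a B score; its mean is 0 on each chromosome and it was read as PC1. The authors made the deposited estimated counts and TPM values with Kallisto (version 0.43.0 per the labels) on Ensembl protein-coding genes. The Hi-C files used here carry no read depth, and the number of libraries limits the precision.

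TAD starts were counted from 1. Estimated counts were rounded. Genes with TPM above 0.1 in both Bama GOM libraries or in the Bama ULB library were kept (17580 of 21280). All 7 libraries were fitted with edgeR 4.0.16 (R 4.3.3), TMM normalization and the quasi-likelihood test, with 1 mean per breed and depot. The estimate of spread was shared by all groups. The SE given with a log2 fold change is that change, without its sign, divided by the square root of the test's F statistic. Alternatives were DESeq2 1.42.0, other filters, normalizations and matching distances, and left-out libraries. TAD ends of the other list near a depot-only boundary were counted after seeing the data. The scripts were tested on simulated data. Genes were placed by symbol through RefSeq on Sscrofa 11.1, whose 18 autosomes have the lengths of the files (13049 genes, 61.3%, on autosomes). Sequences and start sites are from the same RefSeq assembly.

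Members and lists were chosen with earlier results of these data known. Named genes were up to 5 per direction at each kind of depot-only boundary and up to 3 in merged or split TADs, by largest log2 fold change among genes whose TPM averaged 1 or more in the depot where it was higher and whose GOM libraries both lay on 1 side of ULB in library-scaled counts. Called members, and members of the marker lists, were added. Named regions were the 3 merges and splits with the most TADs, and the 5 boundaries per depot, found again in the same wild boar depot alone, farthest from the other list. The results of 1 called gene and some further items are not reported here. The motif sequences and the promoter shown were chosen after their values were seen. A ratio with 1 to 3 counts in 1 depot has a 95% interval for counting error only.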

Additional observations from a re-analysis of the deposited data

Results flagged for a closer look

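The number of TADs differed between depots in opposite directions in the breeds: GOM minus ULB was -260 in Bama pig and 56 in wild boar. Merges minus splits was 108 in Bama pig and -23 in wild boar. With 1 list per group, these differences between breeds were not tested. RHAG, a membrane protein gene of red blood cells in a merged TAD, was lower in both Bama GOM libraries than in the ULB library and higher in both wild boar GOM libraries than in both ULB libraries in library-scaled counts, with a difference of the log2 depot differences of -7.25 that did not pass the adjusted threshold. In TPM its wild boar libraries overlap, with 0.21 and 0.163 in GOM and 0.052 and 0.215 in ULB. STAG1, a cohesin subunit gene at a ULB-only boundary, was higher in Bama GOM and lower in wild boar GOM, with a difference of 1.15 that did not pass it either.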

How the results depend on the processing

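The Hi-C files used here carry no depth, the error of a TAD call is unknown, and 1 Bama ULB library limits the calls of genes. The number of genes called between Bama depots, 96, became 532 with DESeq2, 280 without the filter on low values, 562 with the Bama libraries alone, 89 with upper-quartile normalization, and 40 to 60 when a GOM library was left out. Among the members it became 81, 39, 67 and 13 by the same 4 changes in this order, and 5 without BM-GOM-2 against 10 without BM-GOM-1; the last 3 of the 4 changes, for members, were added after seeing the data. With the replicate block, which pairs depots by replicate number, 1669 genes and 271 members were called. It leaves a single residual degree of freedom, and same-numbered wild boar libraries deviated together only weakly (r = 0.156), so the numbers were not taken as pairs. Genes whose depot difference differs between breeds, 0, became 53 with DESeq2, 7 without the filter, 480 with the replicate block, and 0 to 2 when 1 library was left out. The fold change of CD68 reversed to -2.21 with the replicate block.

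GOM-only boundaries numbered 417 when matched within 80 kb. Matching gaps gave 309 GOM-only and 566 ULB-only boundaries. Counting, as a choice made after seeing the data, only those with no TAD end of the other depot within 40 kb gave 270 and 468, with 23.3% of the GOM-only in wild boar ULB, and 57.9% and 36.3% of the ULB-only in wild boar ULB and GOM. The shares in wild boar moved, with the larger share in the same depot throughout. For GOM-only boundaries they were 50.4% in wild boar GOM at 20 kb, 62.8% and 32.6% (GOM and ULB) at 80 kb, and 65.0% and 32.7% with gaps. For ULB-only boundaries they were 38.5% in wild boar GOM at 20 kb, 45.6% at 80 kb, and 66.1% and 47.0% (ULB and GOM) with gaps. With a window of 100 kb the PC1 step was 2.21 times that of all bin edges at shared and 1.27 at GOM-only boundaries, and the depot-only classes then overlapped. The looser motif with 2 free positions was 1.61 times as dense as over all autosomes at shared and 1.16 at GOM-only boundaries, against 1.31 at ULB-only boundaries. The causes were not tested.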
